A study of Mus musculus with 12 samples.

Results

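The genes described here are 36 mouse genes that mark the intestinal lining and its immune cells, read in RNA sequencing of osteoblasts. They comprise 23 genes of the intestinal epithelium, 12 genes of T and natural killer (NK) lymphocytes and 1 mast cell gene, *Cpa3*. They were picked from a list of names because they were lowest in the third PTH library and because many were lower after PTH treatment, so their PTH and vehicle values are given below as a description, without a test. Of the 36, 35 were listed in the sorted osteoblast libraries among 23284 genes, and all 36 were listed in the MC3T3-E1 libraries among 24346 genes. *Muc2*, which encodes the main gel-forming mucin of the gut, was not analysed here in the sorted osteoblasts.

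The study asked which osteoblast genes respond to intermittent parathyroid hormone (PTH), a bone-building treatment. The osteoblasts came from Col2.3-ECFP mice, in which a fragment of the type I collagen promoter drives the cyan fluorescent protein ECFP, and were sorted as 7AAD- Lin- CD45- ECFP+. The female mice were 12 weeks old when treatment began and were injected for 3 weeks, 5 days in each, with vehicle (PBS) or with a daily 40 µg/kg of PTH (1-34), giving 3 libraries per group. Cells were released by collagenase from crushed calvaria, limb and hip bones a day after the last injection. All 6 libraries carry the same transgene, and the members of the Lin antibody mix are not given in the sources used here. The comparison cells were MC3T3-E1, a clonal osteoblastic mouse line grown without other cells, carrying an empty retroviral vector (mock) or the vector with mouse *Slpi*, with 3 libraries each. The labels do not say whether replicates of the line were separate cultures, so p-values for it measure only the spread between these samples.

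The intestinal epithelium is a single layer of absorptive cells, mucus-making goblet cells and hormone-making endocrine cells, held together by claudins and supported by keratin filaments. The transcription factors CDX1, CDX2 and HNF4A maintain its identity. T lymphocytes signal through the CD3 chains and the kinase LCK, many lymphocytes inside the gut lining carry CD7 and CD160, and mast cells store proteases such as carboxypeptidase A3, the product of *Cpa3*. None of these cell types belongs to the osteoblast lineage, and CD45, encoded by *Ptprc*, is the surface protein by which the sort set blood cells aside.

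Values are FPKM, fragment numbers scaled both to the length of the transcript and to the size of the library, so levels can be compared between genes. Libraries are named vehicle 1 to 3 and PTH 1 to 3 and values follow that order. An FPKM of 0 is written as listed at 0, because *Col1a1* and *Col1a2*, the chains of type I collagen, were at 26216 and 24170 FPKM (*Col1a1*) and 26655 and 24544 FPKM (*Col1a2*) in vehicle 1 and vehicle 2 and were listed at 0 in the other 4 sorted libraries. A listed 0 can thus be a failed estimate. In bulk samples such as these, fewer cells of a type and less RNA per cell cannot be told apart.

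Read numbers are not known, and FPKM is already scaled to the size of the library, so its sum does not measure size. A depth relative to vehicle 1 was estimated from the ratios of the lowest values. It was 0.787 and 1.34 in vehicle 2 and vehicle 3 and 1.12, 1.25 and 1.40 in PTH 1 to 3. FPKM summed to between 400839 and 462460 per sorted library, and between 10795 and 11746 genes reached 1 FPKM, the lowest number being in PTH 3. That library is labelled CFP_PTH by its source name, without the number that the other 5 carry. Osteoblast genes were high throughout, with *Bglap* (osteocalcin) between 6963 and 14280 FPKM and highest in PTH 3. Some libraries stood apart in other marker lists. Heart muscle genes summed to 2835 FPKM in PTH 2 and to at most 16.7 elsewhere, and neutrophil genes summed to 2297 and 1926 FPKM in PTH 1 and PTH 2, 675 in PTH 3 and 375 to 471 in the vehicle libraries. Megakaryocyte genes summed to 185 and 148 FPKM in PTH 1 and PTH 2 and to at most 7.13 elsewhere. The part of these differences in the results below was not tested.

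Promoter sequences are shown for 5 members, to set the start site regions of the lymphocyte genes and *Cpa3* beside that of an epithelial gene. RefSeq windows on GRCm38.p6, from 250 bases before to 50 bases after the start, were found for 30 of the 36 members. *Zg16*, *Krt19*, *Tff3*, *Car1*, *Cdx1* and *Cd7* had no window in the table. The windows are written 5′ to 3′ on the strand of the gene, all of which lie on the minus strand. In *Krt20* (chr11:99438104-99438403) the capitals mark a CDX motif (TTTATNG) on the reverse strand that overlaps a TATA motif (TATAAA). In *Xcl1* (chr1:164935473-164935772), *Cd160* (chr3:96829302-96829601), *Lck* (chr4:129573592-129573891) and *Cpa3* (chr3:20242132-20242431) they mark the RUNX motif (TGTGGTT), which is read as its reverse complement in *Xcl1*, *Cd160* and *Cpa3*. *Cd160* and *Lck* each have 2 windows in the table, and the one that holds the motif is shown.
Krt20: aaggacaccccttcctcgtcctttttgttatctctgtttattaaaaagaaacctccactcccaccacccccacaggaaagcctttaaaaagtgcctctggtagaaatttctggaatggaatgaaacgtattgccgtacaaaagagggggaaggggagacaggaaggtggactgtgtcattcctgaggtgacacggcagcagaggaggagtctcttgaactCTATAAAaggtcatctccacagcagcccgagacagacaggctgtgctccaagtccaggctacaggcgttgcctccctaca
Xcl1: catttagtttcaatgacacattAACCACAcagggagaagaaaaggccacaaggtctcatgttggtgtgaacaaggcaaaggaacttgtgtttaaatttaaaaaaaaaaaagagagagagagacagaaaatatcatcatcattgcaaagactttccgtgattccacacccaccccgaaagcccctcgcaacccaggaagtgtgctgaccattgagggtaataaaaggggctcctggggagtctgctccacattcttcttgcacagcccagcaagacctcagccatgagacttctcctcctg
Cd160: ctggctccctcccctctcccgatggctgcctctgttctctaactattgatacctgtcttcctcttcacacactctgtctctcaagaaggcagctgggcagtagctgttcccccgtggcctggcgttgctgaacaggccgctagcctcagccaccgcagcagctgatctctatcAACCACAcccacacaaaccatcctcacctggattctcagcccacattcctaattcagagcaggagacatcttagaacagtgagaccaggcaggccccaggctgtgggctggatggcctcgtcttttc
Lck: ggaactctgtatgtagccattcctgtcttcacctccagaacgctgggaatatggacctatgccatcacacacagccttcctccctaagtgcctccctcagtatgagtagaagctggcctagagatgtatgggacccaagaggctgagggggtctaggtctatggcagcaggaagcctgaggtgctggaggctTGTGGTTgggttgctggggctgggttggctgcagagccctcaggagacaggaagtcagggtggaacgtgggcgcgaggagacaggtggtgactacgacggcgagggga
Cpa3: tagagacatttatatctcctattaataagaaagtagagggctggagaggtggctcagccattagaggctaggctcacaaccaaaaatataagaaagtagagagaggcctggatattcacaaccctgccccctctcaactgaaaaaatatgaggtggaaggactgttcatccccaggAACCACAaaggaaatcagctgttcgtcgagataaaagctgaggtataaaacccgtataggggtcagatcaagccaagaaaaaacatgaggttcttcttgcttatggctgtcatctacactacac

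Counting genes with the motif on either strand of any of their windows, the RUNX motif was in the windows of 5 of 11 lymphocyte members (*Xcl1*, *Gzma*, *Gzmb*, *Cd160* and *Lck*), in that of *Cpa3* and in none of the 18 epithelial members with a window. It was in at least 1 window of 6.09% of all 27025 genes in the table. The CDX motif was in 4 of the 18 epithelial windows (*Krt20*, *Fabp2*, *Epcam* and *Car4*) and in 0 of the 11 lymphocyte windows, against 12.5% of all genes. TATAAA was in 5 epithelial windows (*Krt8*, *Krt20*, *Muc2*, *Car4* and *Slc26a3*) and in that of *Cpa3*, against 15.7% of all genes. The GATA motif (AGATAAG) was in *Krt8*, *Guca2a* and *Cd3g*, against 3.50% of all genes. The ETS motif (ACCGGAAGT) was in *Cldn7* alone, against 1.21% of all genes, and the HNF4 motif (CAAAGTCCA) was in no member, against 0.555%. A match describes the letters of the window and is neither a binding site nor a cause of the levels below.

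The members lie on 15 chromosomes, with few neighbours among them. *Krt8* and *Krt18*, whose keratins pair into one filament, are 23.7 kb apart on chromosome 15 of GRCm38 (GENCODE vM21), and *Guca2a* and *Guca2b*, which encode the hormones guanylin and uroguanylin, are 17.1 kb apart on chromosome 4. The 3 CD3 genes lie side by side on chromosome 9, with 1.4 kb between *Cd3g* and *Cd3d*. In the annotation 16 of the 36 members overlap another gene, 11 of them one on the opposite strand, and *Vil1* and *Cd160* overlap a protein-coding gene (*Usp37* and *Pdzk1*). Whether the sorted libraries kept the strand is not given in the sources used here, so reads of such pairs cannot be told apart.

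Summed over the list, the epithelial members were high in 5 of the 6 sorted libraries and low in PTH 3. The 22 genes together summed to 1426, 2163 and 1805 FPKM with vehicle and to 1085, 2382 and 5.62 FPKM with PTH. Of the 12 lymphocyte members 9 were lower in every PTH library than in any vehicle library, and *Nkg7*, *Gzma* and *Gzmb* were not. The 12 genes summed to 493, 448 and 274 FPKM with vehicle and to 59.4, 58.8 and 1.58 FPKM with PTH. *Cpa3* moved with the lymphocyte members.

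**Figure D1:**
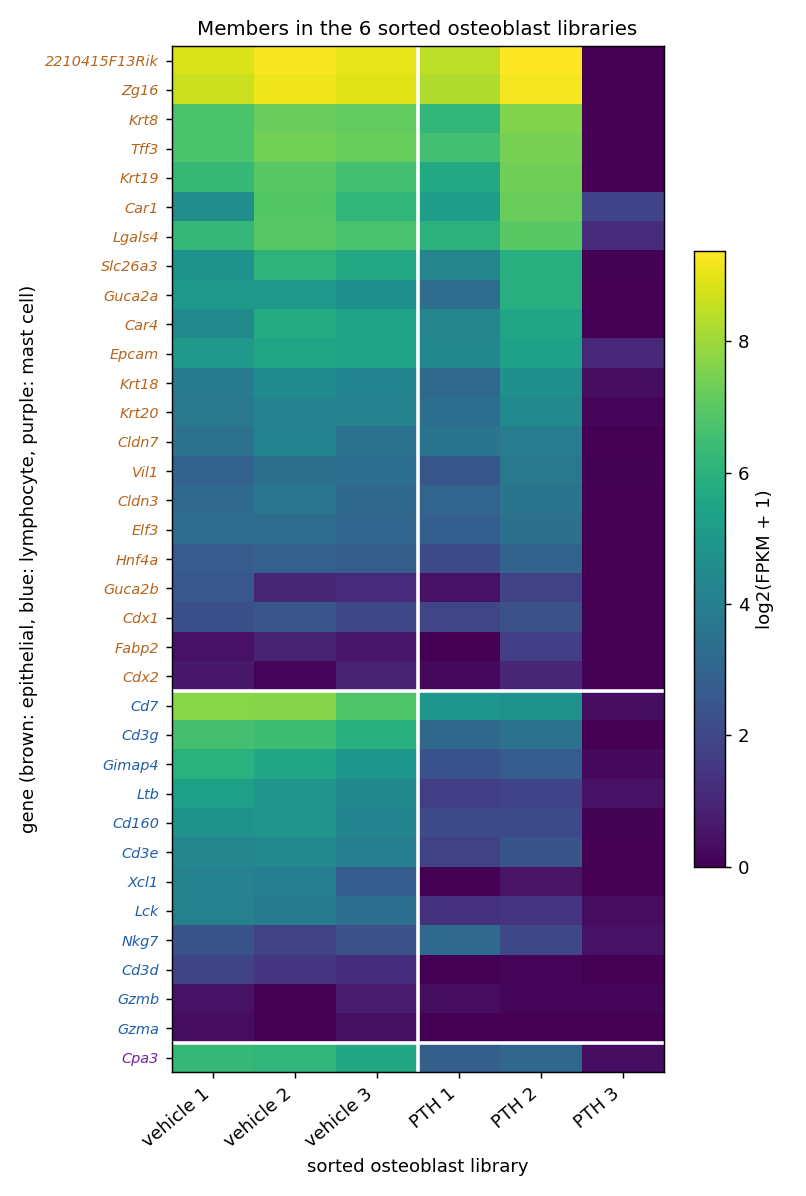
Heat map of the 35 members listed in the sorted osteoblasts, one line per gene and one column per library, coloured by log2(FPKM + 1). The 22 epithelial genes (brown names) are darkest in PTH 3, and 9 of the 12 lymphocyte genes (blue) and *Cpa3* (purple) are brighter in each of the 3 vehicle columns than in any PTH column.

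The most abundant epithelial members encode secreted and surface proteins of the colonic lining. *2210415F13Rik*, named *Lypd8* in RefSeq, encodes a surface protein that keeps flagellated bacteria away from the epithelium, and was at 462, 622 and 525 FPKM with vehicle and at 346, 660 and 0 FPKM with PTH. *Zg16*, a lectin of goblet cell mucus, was at 390, 565 and 488 FPKM with vehicle and at 301, 607 and 0 FPKM with PTH. *Tff3*, a trefoil peptide of goblet cells, was at 105, 165 and 146 FPKM with vehicle and at 92.9, 173 and 0 FPKM with PTH. In each of the 3 genes PTH 2 was the highest of the 6 libraries, PTH 1 was below every vehicle library and PTH 3 was listed at 0. In the other 5 libraries these levels exceeded those of *Runx2*, a defining transcription factor of osteoblasts that was between 29.7 and 53.2 FPKM.

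The keratins gave the same order of libraries. *Krt8* was at 105, 147 and 137 FPKM with vehicle and at 73.6, 191 and 0 FPKM with PTH. Its partner *Krt18* was at 13.5, 21.8 and 17.6 FPKM with vehicle and at 8.33, 24.8 and 0.281 FPKM with PTH. The groups overlapped in both genes, because PTH 2 lay above and PTH 1 below the vehicle libraries. *Krt19* was at 76.5, 126 and 95.0 FPKM with vehicle and at 50.0, 160 and 0 FPKM with PTH. *Krt20*, a keratin of differentiated gut cells, was at 12.3, 17.2 and 16.8 FPKM with vehicle and at 9.58, 21.4 and 0.130 FPKM with PTH. All 4 keratins were thus highest in PTH 2 and lowest in PTH 3.

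Ion transport genes of the colonocyte varied more between the vehicle libraries. *Car1*, a cytosolic carbonic anhydrase, was at 24.0, 118 and 71.2 FPKM with vehicle and at 37.1, 150 and 2.71 FPKM with PTH. *Car4*, a membrane-bound carbonic anhydrase, was at 21.5, 53.7 and 42.6 FPKM with vehicle and at 18.3, 44.6 and 0 FPKM with PTH. *Slc26a3*, the chloride and bicarbonate exchanger of the colon surface, was at 26.2, 67.7 and 49.3 FPKM with vehicle and at 18.0, 59.7 and 0.0461 FPKM with PTH. Vehicle 1 was the lowest and vehicle 2 the highest vehicle library in all 3 genes, and for *Car4* and *Slc26a3* PTH 2 lay within the vehicle range. *Guca2a* (guanylin), a peptide that regulates salt and water secretion, was at 32.9, 31.0 and 24.9 FPKM with vehicle and at 9.14, 58.5 and 0 FPKM with PTH. It had the widest gap between PTH 1 and PTH 2 among the 16 epithelial members that reached 10 FPKM, at 0.309 and 1.98 times the vehicle mean.

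Genes of adhesion and the cell surface followed. *Lgals4* (galectin-4), a lectin of gut epithelium, was at 75, 122 and 101 FPKM with vehicle and at 64.5, 125 and 1.27 FPKM with PTH. *Epcam*, an epithelial adhesion molecule, was at 32.3, 45.0 and 43.1 FPKM with vehicle and at 19.6, 40.2 and 1.14 FPKM with PTH. *Lgals4*, *Epcam* and *Car1* were the only epithelial members above 1 FPKM in PTH 3. The tight junction gene *Cldn7* was at 10.3, 17.8 and 10.5 FPKM with vehicle and at 11.3, 14.4 and 0 FPKM with PTH, and *Cldn3* was at 8.16, 11.7 and 7.75 FPKM with vehicle and at 7.42, 11.2 and 0 FPKM with PTH. *Vil1* (villin), which bundles actin in microvilli, was at 6.61, 10 and 9.80 FPKM with vehicle and at 4.66, 12.6 and 0.0384 FPKM with PTH. *Cldn7* lay inside the vehicle range in PTH 1, as did *Car1* and *Cdx2* alone among the other epithelial members.

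The transcription factors of gut identity were lower in level and were lowest in PTH 3. In PTH 2 *Cdx1* lay within the vehicle range, and in PTH 1 *Cdx2* did. *Hnf4a* was between 5.39 and 6.37 FPKM with vehicle, at 3.47 and 6.85 FPKM in PTH 1 and PTH 2, and listed at 0 in PTH 3. *Elf3*, an epithelial ETS factor, and *Cdx1* were between 3.11 and 9.29 FPKM with vehicle and between 2.90 and 9.99 FPKM in PTH 1 and PTH 2. *Cdx2* did not exceed 1.03 FPKM in any library. The remaining members were low: *Guca2b* (uroguanylin) reached 4.79 FPKM, and *Fabp2*, a fatty acid carrier of small intestinal absorptive cells, reached 2.28 FPKM. *Elf3*, *Cdx1*, *Cdx2*, *Guca2b* and *Fabp2* were all listed at 0 in PTH 3.

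Over all 22 genes, the median ratio to the mean of the vehicle libraries was 0.802, 1.17 and 1.000 in vehicle 1 to 3, and 0.547, 1.25 and 0 in PTH 1 to 3. PTH 2 lay above every vehicle library in 15 of the 22 genes and below every vehicle library in 0, while 35.4% of all 13004 tested genes lay above. PTH 1 lay below every vehicle library in 19, against 35.5% of all tested genes. In no epithelial member were all 3 PTH libraries below all 3 vehicle libraries, which held for 20.9% of all tested genes. PTH 3 was under 0.1 of the mean of the other 5 libraries in 22 of 22, against 6.79% of all tested genes, and this is one of the values by which the members were picked. In 15 of the 22 it was listed at 0. The median log2 fold change of the 22 genes, PTH over vehicle on the log2(FPKM + 1) scale, was -1.39, against 0.01 over all tested genes. It was -0.12 without PTH 3 and -2.51 without PTH 2, the library with the heart muscle genes.

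**Figure D2:**
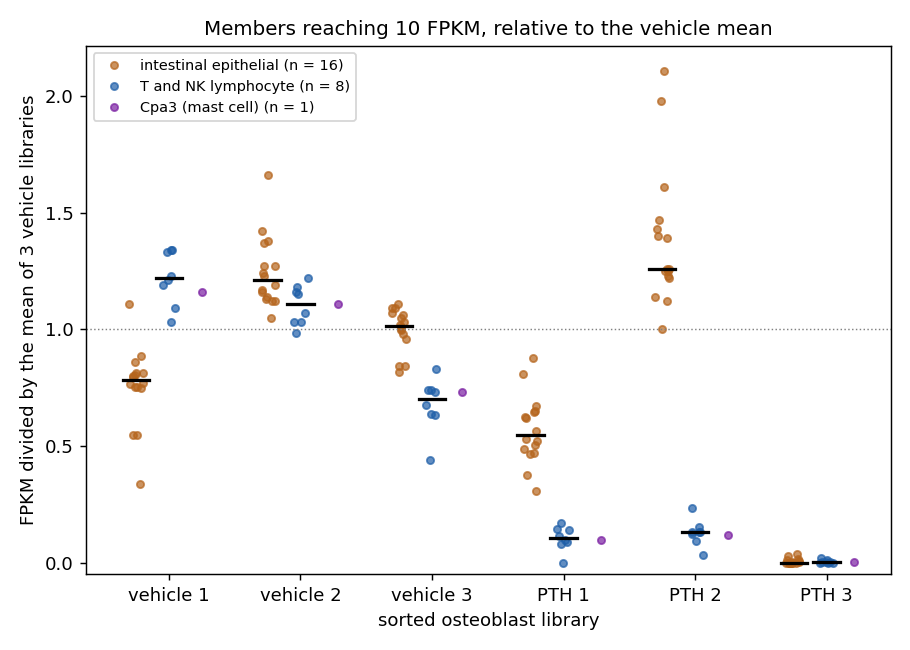
FPKM of each member that reached 10 FPKM, divided by the mean of its 3 vehicle libraries, by library. Points are genes (16 epithelial, 8 lymphocyte and *Cpa3*), black bars are medians over genes and the dotted line marks 1, with medians of 0.547, 1.26 and 0 for epithelial and 0.105, 0.131 and 0.00179 for lymphocyte genes in PTH 1 to 3.

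Among lymphocyte members, 9 of 12 were lower in all 3 PTH libraries than in any vehicle library, against 20.9% of all tested genes, and 3 were not. The members were picked on these values, so nothing is read from the count. *Cd7*, an immunoglobulin-family receptor of T and NK cells, was the most abundant, at 209, 200 and 110 FPKM with vehicle and 29.1, 26.7 and 0.268 FPKM with PTH. *Cd3g*, a signalling chain of the T cell receptor complex, was at 97.5, 87.3 and 60.4 FPKM with vehicle and at 7.89, 10.7 and 0 FPKM with PTH. *Cd3e*, another chain of that complex, was at 19.1, 21.4 and 15.4 FPKM with vehicle and at 2.62, 4.37 and 0 FPKM with PTH. The groups did not overlap in these genes, and the PTH libraries were not alike among themselves, PTH 3 being far below PTH 1 and PTH 2. *Cd3d*, the neighbour of *Cd3g* in the genome, was only at 2.79, 1.77 and 1.35 FPKM with vehicle and at 0, 0.111 and 0 FPKM with PTH.

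Signalling and effector genes showed the same split. *Lck*, the kinase that starts T cell receptor signalling, was at 16.3, 13.7 and 9.82 FPKM with vehicle and at 1.50, 1.74 and 0.239 FPKM with PTH. *Cd160*, a receptor on NK cells and lymphocytes of the gut lining, was at 26.5, 28.8 and 17.8 FPKM with vehicle and at 3.53, 3.25 and 0.0495 FPKM with PTH. *Gimap4*, a GTPase of lymphocytes, was at 61.7, 47.9 and 29.2 FPKM with vehicle and at 4.13, 5.58 and 0.183 FPKM with PTH. Vehicle 3 was the lowest vehicle library in each of these 3 genes, and it still exceeded the highest PTH library by a wide margin. *Ltb* (lymphotoxin beta), a cytokine of lymphoid tissue, was at 38.8, 28.4 and 19.5 FPKM with vehicle and at 2.37, 2.67 and 0.377 FPKM with PTH. *Xcl1* (lymphotactin), a chemokine of activated lymphocytes, was at 17.0, 15.5 and 5.57 FPKM with vehicle and at 0, 0.425 and 0 FPKM with PTH. *Xcl1* is one of the genes whose promoter is printed above with a RUNX motif, as are *Cd160* and *Lck*.

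Over the 10 lymphocyte members that reached 1 FPKM the median ratio to the vehicle mean was 0.105, 0.131 and 0.00179 in PTH 1 to 3. Their median log2 fold change was -3.33 with all libraries, -2.52 without PTH 3 and -3.58 without PTH 2. The 3 members that did not follow were genes of cytotoxic granules. *Nkg7* was at 4.40, 2.63 and 4.06 FPKM with vehicle and at 8.09, 3.09 and 0.369 FPKM with PTH, so that PTH 1 was the highest library. *Gzma* and *Gzmb* (granzymes A and B) did not exceed 0.677 FPKM in any sorted library and were not tested.

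*Cpa3*, the single mast cell gene, was at 74.0, 70.7 and 46.7 FPKM with vehicle and at 6.18, 7.52 and 0.269 FPKM with PTH. Vehicle 3 was its lowest vehicle library, as in 9 of the 12 lymphocyte members, whereas vehicle 1 was the lowest in 16 of the 22 epithelial members. Its ratio to *Cd3g* was 0.759, 0.810 and 0.774 with vehicle, 0.783 in PTH 1 and 0.701 in PTH 2. *Cd3g* was listed at 0 in PTH 3, which gives no ratio. The ratio to *Cd3g* was thus near-constant, while both genes were several-fold lower in PTH 1 and PTH 2 than with vehicle. This did not hold for every lymphocyte member. Relative to its vehicle mean, *Cpa3* was at 0.0968 and 0.118 in PTH 1 and PTH 2. On that measure *Cd3g* was at 0.0966 and 0.131 and *Gimap4* at 0.0893 and 0.121, but *Cd3e* was at 0.141 and 0.235 and *Cd7* at 0.168 and 0.154.

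Ratios were taken for a few pairs of genes, chosen after their values were seen, and between the summed lists. The pair *Cpa3* and *Cd3g* above was chosen in the same way. *Tff3* was between 0.268 and 0.308 times *Zg16* and *Krt18* between 0.113 and 0.149 times *Krt8* in the 5 libraries where all were listed. The summed lymphocyte members were 0.346, 0.207 and 0.152 times the summed epithelial members with vehicle, 0.0548 and 0.0247 times with PTH in PTH 1 and PTH 2, and 0.281 times in PTH 3, where both sums were small. *Cd7* to *Cd3g* was the widest of the within-list ratios shown, between 1.82 and 3.68. Other pairs were less steady: *Car1* was at 24.0 and 118 FPKM in vehicle 1 and vehicle 2, where *Zg16* was at 390 and 565 FPKM, and *Nkg7* was higher in PTH 1 than in any vehicle library while *Cd3g* was lower.

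**Figure D3:**
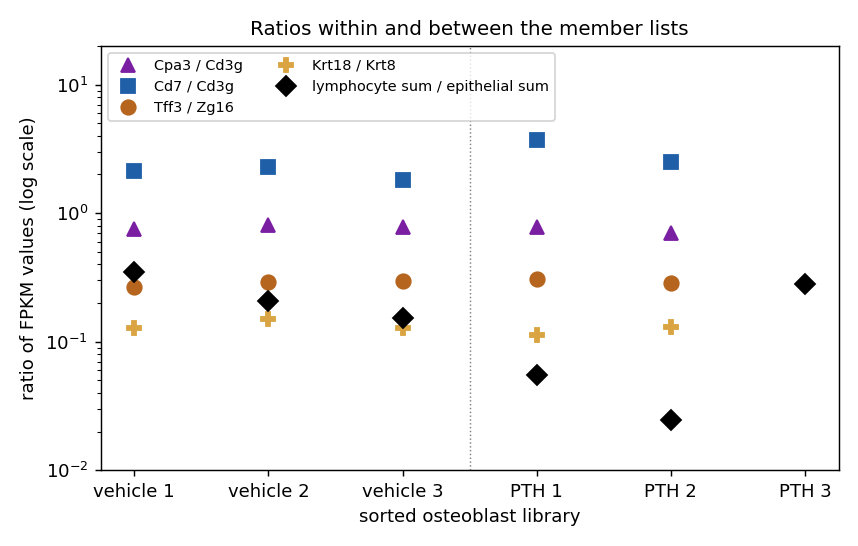
Ratios of FPKM values by library on a log axis: *Cpa3* to *Cd3g*, *Cd7* to *Cd3g*, *Tff3* to *Zg16*, *Krt18* to *Krt8* (not defined in PTH 3) and the summed 12 lymphocyte to the summed 22 epithelial members (black diamonds). The diamonds run from 0.346 in vehicle 1 to 0.0247 in PTH 2. *Cpa3* to *Cd3g*, a pair chosen after its values were seen, stays between 0.701 and 0.810.

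The correlation of epithelial with immune members over the libraries was lower without PTH 3. Over 6 libraries the median Pearson correlation of log2(FPKM + 1) was 0.98 among 231 pairs of epithelial members, 0.97 among 45 pairs of lymphocyte members and 0.70 among 220 pairs with 1 gene of each kind. Without PTH 3, over 5 libraries, these medians were 0.83, 0.99 and 0.16. *Cpa3* had a median correlation of 0.98 with the lymphocyte and 0.78 with the epithelial members over 6 libraries, and of 0.99 and 0.20 over 5. With all 6 libraries and the mean of each treatment group subtracted, the medians were 0.97 among epithelial pairs, 0.83 among lymphocyte pairs and 0.84 between the lists. Over all pairs of tested genes the median was 0 in each of these settings. The members were picked for low values in PTH 3 and with PTH, so their high correlations are partly set by that choice. These correlations describe 6 libraries from a vehicle and a PTH group, with 1 library far from the rest, and no test was made of them. Whether all 6 were prepared together is not given in the sources used here.

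**Figure D4:**
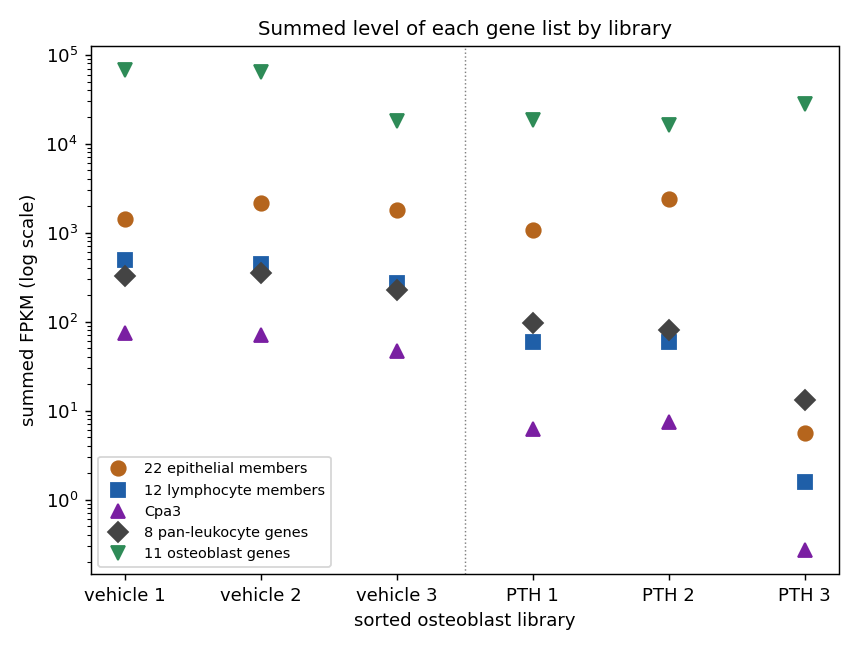
Summed FPKM of gene lists by sorted osteoblast library on a log axis: 22 epithelial members, 12 lymphocyte members, *Cpa3* alone, 8 pan-leukocyte genes and 11 osteoblast genes. Epithelial sums are at 1085 or more in all libraries but PTH 3 (5.62), lymphocyte sums are at 274 or more with vehicle and at 59.4 or less with PTH, and the osteoblast sums of vehicle 3 and the PTH libraries lack *Col1a1* and *Col1a2*, which are listed at 0 there.

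Among genes that are not members, those most like the mean epithelial profile were chosen by correlation over the 6 libraries from 11747 genes with a mean of at least 1 FPKM. The closest 10 were *Agr2*, *Myh11*, *Cyp2d34*, *Phgr1*, *Ms4a8a*, *Slc44a4*, *Gpr128*, *Tspan1*, *F11r* and *Cyp2c55*, with r between 0.996 and 0.999. *Agr2* is a goblet cell protein needed for making mucin, and *Phgr1* and *Cyp2c55* are genes of the gut lining, whereas *Myh11* encodes the myosin of smooth muscle. *Myh11* was at 14.2, 19.2 and 18.3 FPKM with vehicle and at 10.9, 21.1 and 0.0349 FPKM with PTH. Of 39 other gut genes ranked, 16 were among the closest 100, as were 0 of 29 leukocyte genes. For the lymphocyte profile the closest 10 were *Cel*, *Hccs*, *Cdca7*, *Klrd1*, *Rasgrp1*, *Fnbp1*, *Acap1*, *Idh3a*, *Slc38a1* and *Gm19757*, with r of 0.998 or more. *Klrd1* (CD94) is a receptor of NK and some T cells, and *Rasgrp1* links the T cell receptor to RAS. *Cel*, carboxyl ester lipase, is best known as a pancreatic enzyme, and was at 37.0, 34.3 and 21.1 FPKM with vehicle and at 3.74, 3.82 and 0.0609 FPKM with PTH. Of the 29 leukocyte genes ranked, 6 were among the closest 100, as were 0 of the 39 gut genes.

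The label of gut epithelium was checked against 78 other gut genes, of which 75 were listed. Some genes of the colon were present with the members' pattern. *Clca3*, now named *Clca1*, a goblet cell protein, was between 72.0 and 109 FPKM with vehicle, at 63.1 and 87.5 FPKM in PTH 1 and PTH 2, and listed at 0 in PTH 3. The water channel *Aqp8* was between 15.1 and 41.3 FPKM with vehicle and at 11.4, 26.8 and 0.0874 FPKM with PTH. *Pyy* and *Insl5*, hormones of colonic endocrine cells, reached 32.8 and 17.1 FPKM. Other genes of the gut lists did not follow. The goblet cell genes *Retnlb*, *Muc4* and *Spdef* did not exceed 0.983 FPKM, and *Atoh1* reached 1.24 FPKM. *Klf5* was between 6.08 and 10.5 FPKM in all 6 libraries, at 8.38 FPKM in PTH 3. Of the 45 gut genes tested, 32 were in PTH 3 under 0.1 of the mean of the other libraries. Of genes typical of the small intestine and its Paneth cells, some were listed at 0 and others were not. *Sis* (sucrase-isomaltase), *Alpi* (intestinal alkaline phosphatase), *Ang4* and 5 *Defa* defensin genes were listed at 0 in all 6 libraries, though reads of near-identical *Defa* copies may have been split or lost in counting. *Lyz1*, a lysozyme of Paneth cells, was between 3.54 and 9.79 FPKM in 5 libraries and at 1.90 FPKM in PTH 3, *Slc15a1*, a peptide transporter, was between 2.16 and 8.45 FPKM in 5 libraries and listed at 0 in PTH 3, and *Slc5a1*, a glucose transporter, reached 2.56 FPKM. *Pla2g2a* and *Reg3g* reached 1.98 and 1.10 FPKM. *Krt5*, *Sftpc*, *Umod* and *Cpa1*, which mark skin, lung, kidney and exocrine pancreas, did not exceed 0.210 FPKM. Other genes of that list were present: *Cela1*, a pancreatic elastase, was between 9.31 and 19.2 FPKM in 5 libraries and at 0.745 FPKM in PTH 3, *Ttr* (transthyretin) was between 1.23 and 2.75 FPKM in all 6, and *Alb* (albumin) was at 8.02 FPKM in PTH 3.

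The label of T and NK lymphocytes held for some markers and not for others. *Zap70* and *Cd28*, which act in T cell activation, were between 2.90 and 12.2 FPKM with vehicle. The coreceptors *Cd4*, *Cd8a* and *Cd8b1* did not exceed 0.493 FPKM, and *Cd5*, *Cd6* and *Cd247* did not exceed 0.269 FPKM in any sorted library. Several genes that define NK cells were also near 0, with *Ncr1*, *Eomes*, *Tbx21*, *Prf1* and *Klrb1c* at no more than 0.411 FPKM. Receptor genes of NK cells and some T cells were present. With vehicle *Klrd1*, *Klrk1* and *Klrc1* were between 0.665 and 21.6 FPKM, and *Cd96* was between 25.1 and 34.4 FPKM. The *Cd7* and *Cd3g* signal therefore came without several markers that define conventional T and NK cells, and no cell type is given to it here. The T cell receptor constant genes were not analysed here.

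The mast cell label was not borne out by most of the other mast cell and basophil genes. *Mcpt1*, *Mcpt2*, *Mcpt4*, *Cma1*, *Tpsb2*, *Tpsab1*, *Ms4a2*, *Fcer1a*, *Mrgprb1* and *Mrgprb2*, which encode mast cell proteases and receptors, did not exceed 0.360 FPKM, and 6 of the 10 were listed at 0 in all 6 libraries. *Kit*, *Hdc*, *Il1rl1* and *Gata2* were present in all 6 libraries, between 0.393 and 5.61 FPKM. *Mcpt8*, *Prss34* and *Cd200r3* did not exceed 1.49 FPKM. *Cpa3* is described by its own name because the listed proteases were near 0. The 17 other mast cell and basophil genes summed to between 4.70 and 6.12 FPKM with vehicle and between 6.63 and 13.1 FPKM with PTH.

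For genes that are not members, PTH-treated and vehicle-treated osteoblasts were compared in limma over 13004 genes that reached 1 FPKM, with a call at an adjusted p under 0.05 and at least a 2-fold change on the log2(FPKM + 1) scale. At that threshold 3.78% of all tested genes were lower and 0.869% higher. Of the members 33 passed the filter and 9 were called lower (8 lymphocyte genes and *Cpa3*), from which nothing is read because PTH values chose them. Of 29 other T and NK genes tested, from a list written with earlier results of these data known, 19 were lower and 0 higher, with a median log2 fold change of -1.40. Some, such as *Themis* and *Il7r*, passed the filter of 1 FPKM through vehicle libraries alone, which favours a lower value with PTH. The direction of this list is therefore partly set by the filter. With no filter on low values 17 of 46 were lower and 0 higher. *Cd96*, an NK and T cell receptor, fell by 3.33 on the log2 scale (SE 0.365, limma adjusted p = 0.0133, lower in 3 of 3 PTH libraries), from 31.0, 34.4 and 25.1 FPKM to 2.69, 3.73 and 0.678 FPKM. *Klrd1* fell by 2.92 (SE 0.498, adjusted p = 0.0184), *Cd27*, a costimulatory receptor, fell by 2.80 (SE 0.453, adjusted p = 0.0174), and *Gimap7*, a lymphocyte GTPase, fell by 2.75 (SE 0.328, adjusted p = 0.0133). *Lat*, an adaptor of T cell receptor signalling, did not pass at -1.96 (adjusted p = 0.116), nor did *Cxcr6*, a chemokine receptor, at -1.04 (adjusted p = 0.0654). All 3 PTH libraries were below all 3 vehicle libraries in 24 of the 29 genes, against 20.9% of all tested genes. With 2 vehicle libraries the adjusted p passed for 0 of the genes, whether vehicle 1 or vehicle 2 was left out, although 18 of 29 and 19 of 26 genes were lower by at least 2-fold at an unadjusted p under 0.05. Among all genes 512 of 12899 and 482 of 12835 were lower in that way. Without PTH 3 the count called lower was 15 of 29, against 369 of 12900 among all genes. *Klrd1* did not pass on the log2(FPKM + 0.1) scale (adjusted p = 0.0597).

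Most of the pan-leukocyte genes fell as well. *Ptprc*, the gene for CD45 on which cells were gated out, was at 56.9, 59.2 and 35.9 FPKM with vehicle and at 10.1, 8.53 and 0.930 FPKM with PTH (log2 fold change -3.10, SE 0.635, limma adjusted p = 0.0270). *Ptprcap*, which encodes a partner protein of CD45, was at 74.3, 64.1 and 51.7 FPKM with vehicle and between 0.525 and 11.6 FPKM with PTH (-3.46, SE 0.738, adjusted p = 0.0291). Of 8 such genes 6 were called lower, and in 8 of 8 the PTH libraries lay below the vehicle libraries, against 20.9% of all tested genes. The others called included *Cd53*, a tetraspanin of blood cells, at -2.32 (adjusted p = 0.0331) and *Rac2*, a GTPase of blood cells, at -1.84 (adjusted p = 0.0484), while *Coro1a* at -2.41 (adjusted p = 0.0635) and *Laptm5* at -2.24 (adjusted p = 0.0633) did not pass. Their sum was 326, 349 and 227 FPKM with vehicle and 96.1, 79.6 and 13 FPKM with PTH. The count was 0 of 8 without vehicle 1 or without vehicle 2, with 8 of 8 lower at an unadjusted p under 0.05, and 1 of 8 without vehicle 3. It was 4 of 8 without PTH 1 or without PTH 2, 7 of 8 without PTH 3, 2 of 8 with no filter on low values, and 3 of 8 both without the variance trend and after scaling to a common sum. On the log2(FPKM + 0.1) scale 1 of 8 was called, and *Ptprcap* (adjusted p = 0.0505), *Cd53* (0.0512) and *Rac2* (0.0655) did not pass.

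The other gut genes did not pass the test in this comparison. Of 45 tested, 1 was called lower and 0 higher, with a median log2 fold change of -0.82 that was -0.27 without PTH 3 and -1.24 without PTH 2. Without PTH 2, 23 of 43 genes were lower by at least 2-fold at an unadjusted p under 0.05, and 1 was called after adjustment. With all libraries 1 of 45 was lower at the unadjusted p. Among all genes these unadjusted counts were 819 of 12768 without PTH 2 and 566 of 13004 with all libraries. *Spink4*, a goblet cell peptide, was at -2.31 (SE 1.26, limma adjusted p = 0.244), *Clca3* at -2.27 (SE 1.57, adjusted p = 0.348), *Agr2* at -2.06 (SE 1.48, adjusted p = 0.366), *Phgr1* at -2.04 (SE 1.43, adjusted p = 0.356) and *Pyy* at -2.03 (SE 1.04, adjusted p = 0.217). PTH 3 was under 0.1 of the mean of the other libraries in 32 of the 45 genes, PTH 1 lay below every vehicle library in 31 and PTH 2 above every vehicle library in 12. Over all tested genes the shares were 6.79%, 35.5% and 35.4%. The 1 gene called was *Avil* (advillin), an actin-binding protein of tuft cells and sensory neurons, which was at 7.20, 5.98 and 3.27 FPKM with vehicle and at 0.891, 0.574 and 0.553 FPKM with PTH (-1.91, SE 0.260, adjusted p = 0.0139). In *Avil* every vehicle library lay above every PTH library, as in 9 of the 12 lymphocyte members. *Avil* was nearly level between PTH 2 and PTH 3, whereas those members were lower in PTH 3 than in PTH 2. The tuft cell genes *Trpm5* and *Pou2f3* did not exceed 0.121 FPKM. *Dclk1*, another gene of tuft cells, was between 0.879 and 2.06 FPKM in all 6 libraries (0.36, adjusted p = 0.231), and *Il25* reached 0.522 FPKM. *Avil* did not pass without vehicle 1 (adjusted p = 0.0745) or without vehicle 2 (adjusted p = 0.0752).

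Of the other mast cell and basophil genes 6 were tested, 0 were lower and 1 was higher, with no shared direction (4 above 0 and 2 below). *Hdc*, the enzyme that makes histamine, rose from 1.08, 1.74 and 1.18 FPKM to 5.61, 4.89 and 4.27 FPKM (1.35 on the log2 scale, SE 0.172, limma adjusted p = 0.0138), against the direction of *Cpa3*. *Kit*, the stem cell factor receptor of mast cells and blood progenitors, was at -0.11 (adjusted p = 0.765). *Hdc* did not pass without vehicle 1 (adjusted p = 0.0734) or without vehicle 2 (adjusted p = 0.0736).

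**Figure D5:**
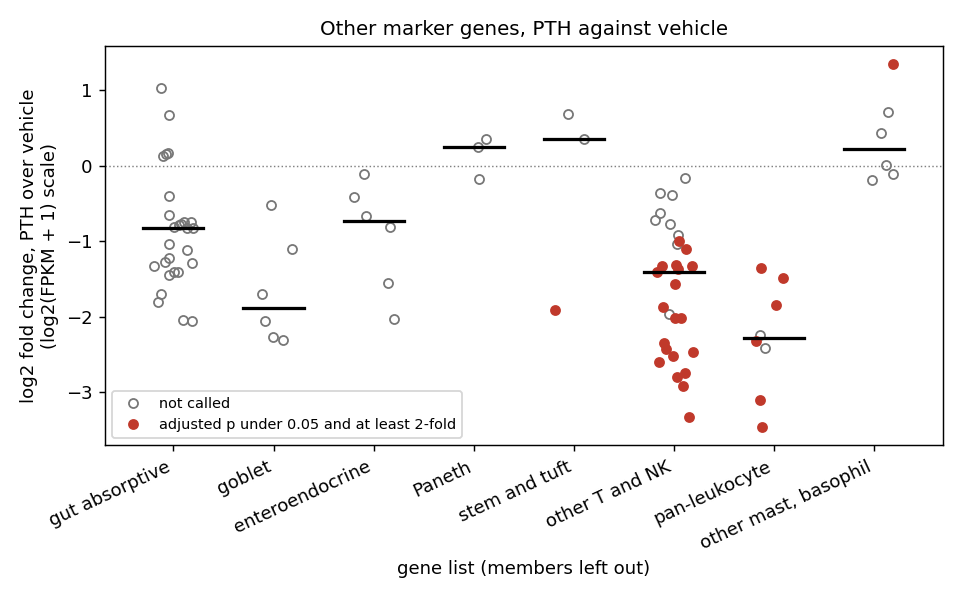
Log2 fold change, PTH over vehicle on the log2(FPKM + 1) scale, for the tested genes of 8 marker lists with members left out. Filled red points passed limma at an adjusted p under 0.05 with at least a 2-fold change, open points did not, and black bars are medians. Called genes are 19 of 29 in the other T and NK list and 6 of 8 in the pan-leukocyte list, against 1 of 45 over the 5 gut lists and 1 of 6 in the mast cell and basophil list.

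In the MC3T3-E1 line, whose values played no part in the choice, nearly all members were at or near 0. *Slpi* itself averaged 386 FPKM in mock cells and 1975 FPKM in the cells given *Slpi*, as labelled. Of the 36, 13 were listed at 0 in all 6 libraries, 22 were above 0 but under 1 FPKM, and 1 reached 1 FPKM. *Cpa3*, *Krt18*, *Slc26a3*, *Hnf4a* and the 3 CD3 genes were listed at 0 in every library, and *Lypd8*, which reached 660 FPKM in the sorted cells, was at no more than 0.0950 FPKM. *Lgals4* was between 0.369 and 0.912 FPKM. The gene that reached 1 FPKM was *Gzmb*, at 1.53, 1.77 and 1.97 FPKM in mock cells (mean 1.76 ± 0.221, SD, n = 3) and at 0.653, 0.364 and 0.915 FPKM in *Slpi*-expressing cells (0.644 ± 0.276, SD, n = 3). The groups did not overlap, and the log2 fold change on the log2(FPKM + 1) scale was -0.76 (SE 0.129, limma adjusted p = 0.00115). On this scale, which understates the change of low genes, it was under 2-fold and *Gzmb* was not called. *Gzmb* was the only 1 of the 36 members that was tested, so the count is 0 of 1. Of 11466 tested genes 1.12% were called in either direction, and nothing is read from setting 1 gene beside that share. On the log2(FPKM + 0.1) scale *Gzmb* was at -1.38 (adjusted p = 0.00232), which passes both criteria. The labels give a different library kit for the line than for the sorted cells, although the paper describes the same route for both. Their values were not compared by a test.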

How the data were processed

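RNA was sequenced from 6 libraries of sorted osteoblasts (3 vehicle, 3 PTH) and 6 of MC3T3-E1 cells (3 mock, 3 *Slpi*). The deposited values are FPKM per gene for each sample, which the authors made from reads aligned to mm10. The submitters' processing notes name TopHat2 2.0.13, Bowtie2 2.2.3, SAMtools 0.1.19 and Cufflinks 2.2.1. Sorted cells were amplified with a SMART-Seq kit, and the labels give a stranded mRNA kit for the line. The paper's methods name SMART-Seq and KAPA kits and no separate kit for the line. The depth in reads is unknown.

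Groups followed the sample titles. Genes reaching 1 FPKM in any library of a comparison were tested as log2(FPKM + 1) in limma 3.58.1 (R 4.3.3) with a variance trend and Benjamini-Hochberg adjustment. A pseudocount of 1 understates the change of low genes. On simulated data made from the sorted libraries with 200 genes changed by 2 log2 units, among 12559 genes, 189 were recovered with 5 false calls. The changed genes were drawn from those of higher level, and noise was independent between genes. In the real libraries whole lists moved together in PTH 3, so these counts do not measure the reliability of the real calls. With 3 libraries against 3 an exact permutation test cannot give a two-sided p under 0.10, so none was used. Other values were computed in Python.

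The members and all gene lists were chosen with earlier results of these data known. All members are accounted for, those reaching 10 FPKM with every value. In each other list up to 4 called genes (largest change) and up to 3 uncalled genes (highest level) were eligible to be named. One gene that this rule names is not reported here. Further genes named in the checks of cell type labels and among the other observations were chosen after their values were seen. Alternatives were a pseudocount of 0.1, no filter, a mean of at least 1 FPKM, a replicate block, no variance trend, quantile normalization, scaling to a common sum, unadjusted p-values and leaving out each library. Pairing of samples by replicate number was not assumed. Deviations of same-numbered sorted libraries correlated at 0.029, 0.073 and 0.102, and those of differently numbered ones between -0.116 and 0.069. These small values do not settle whether the samples were paired, so the replicate block is given as an alternative.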

Additional observations from a re-analysis of the deposited data

How the results depend on the processing

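The number of members called lower with PTH was 9, and leaving out 1 library gave between 0 (without vehicle 1 or vehicle 2) and 10 (without PTH 3). In the same leave-one-out fits the other gut genes called ranged from 0 to 1, the other T and NK genes from 0 to 18 against 19, and all genes from 0 to 527 against 491 (302 without PTH 1). The zeros all came without vehicle 1 or without vehicle 2, where 10 members were lower by 2-fold at an unadjusted p under 0.05 in either case. Among all genes 512 of 12899 and 482 of 12835 were lower in that way. With the replicate block, 10 members, 1 other gut gene, 20 other T and NK genes, 0 other mast cell genes and 517 genes in all were called lower, and *Lat* (adjusted p = 0.0273), *Cxcr6* (0.0283), *Coro1a* (0.0297) and *Laptm5* (0.0271) also passed. The count of members called with *Slpi* was 0 of 1 tested. It was 1 of 1 (*Gzmb*) with a pseudocount of 0.1 and 1 of 2 (*Gzmb*) with scaling to a common sum. Direction changed in 7 fits of 3 genes that had not passed. With a library left out, *Lyz1* (0.25 with all) ranged from -0.06 (without PTH 1 or PTH 2) to 0.88, *Pla2g2a* (-0.17) from -0.70 to 0.09 (0.02 without vehicle 1, 0.09 without PTH 1 or PTH 3), and *Kit* (-0.11) from -0.26 to 0.06 (without PTH 3). *Kit* was also at 0.06 with quantile normalization. Of the other fits of single genes 372 kept direction and side of the threshold, 33 lost a call and 11 gained one. The causes were not tested. Depth in reads is unknown, so no counting limit can be set for values near 0.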

Other observations

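A few genes of other organs were listed in PTH 3, the library in which the members were lowest. *Fabp1*, a fatty acid carrier of liver and small intestine, was at 7.47 FPKM there and listed at 0 in the other 5 libraries, *Alb* (albumin) was at 8.02 FPKM there and at no more than 0.152 FPKM elsewhere, and *Apoa1* was at 7.03 FPKM there and at no more than 2.11 FPKM elsewhere. *Igj*, the joining chain of secreted antibodies that is made by plasma cells, was at 13.5, 22.1 and 7.77 FPKM with vehicle and at 11.7, 5.14 and 0.648 FPKM with PTH. *Gimap6* differed from *Gimap4* in that it stayed at 27.8, 25.8 and 24.9 FPKM with PTH, from 68.7, 74.4 and 56.6 FPKM with vehicle.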
